A study of Gorilla gorilla gorilla with 13 samples.

Results

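Sorted neurons were set against basal intermediate progenitors, 2 libraries against 3, out of the 13 RNA libraries made from gorilla cerebral organoids. The members were chosen by their labels alone: every library of the neuron group (N) and every library of the basal intermediate progenitor group (bIP), compared over all named genes of the human-build count table. Cerebral organoids are 3-dimensional cultures of developing brain tissue grown from pluripotent stem cells, and all of these came from 1 line of induced pluripotent gorilla cells, GC1, and were collected at week 8, give or take 3 days. The neurons were sorted as BCL11B-positive cells, while no source used here gives the antigens that marked the bIP cells. The other 8 libraries hold apical (aRG, n = 4) and basal (bRG, n = 4) radial glia of the same organoids, with no treatment or genetic change named for any group. Each library was built from the RNA of 10000 sorted cells with Smart-seq2, an amplification method without molecular identifiers, using 12 to 17 cycles of PCR. No label says that libraries of a group came from separate cultures, so the p-values below measure only how these libraries vary, and that variation may be technical. All values stand for that 1 line.

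In the developing cortex, radial glia are the stem cells at the ventricle and above it. Intermediate progenitors are their committed daughters, known for the T-box factor EOMES (also called TBR2), and they divide to give glutamatergic neurons. Early neurons of the deep cortical layers carry the transcription factor BCL11B (CTIP2). Cajal-Retzius cells are another early-born kind of neuron, which arise at the edges of the cortical sheet, spread under its surface guided by the chemokine receptor CXCR4 and secrete reelin, the protein product of RELN that positions later neurons.

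The 5 libraries held between 6181720 (bIP library 1) and 12524938 counts (the second neuron library), within the range of all 13. The column of the second neuron library carries a number that no neuron label has, so it is called the unnumbered neuron library. The 2 groups were hardly further apart than the libraries within them. Over 9190 genes with a mean of at least 4 log2 CPM (CPM is the count of a gene relative to the scaled total of its library), the median absolute log2 difference was 0.317 between the neuron libraries and 0.217, 0.314 and 0.345 among the bIP libraries. Neuron library 1 stood at 0.314, 0.283 and 0.351 from bIP libraries 1, 2 and 3. The unnumbered neuron library stood at 0.436, 0.425 and 0.296 from the same libraries. At this level minimum neuron library 1 lay nearest to bIP library 2, and the unnumbered neuron library to bIP library 3. Over the 4255 genes of at least 6 log2 CPM neuron library 1 was again nearest to bIP library 2 (0.253), but the unnumbered library lay nearer to neuron library 1 (0.275) than to bIP library 3 (0.280).

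**Figure D1:**
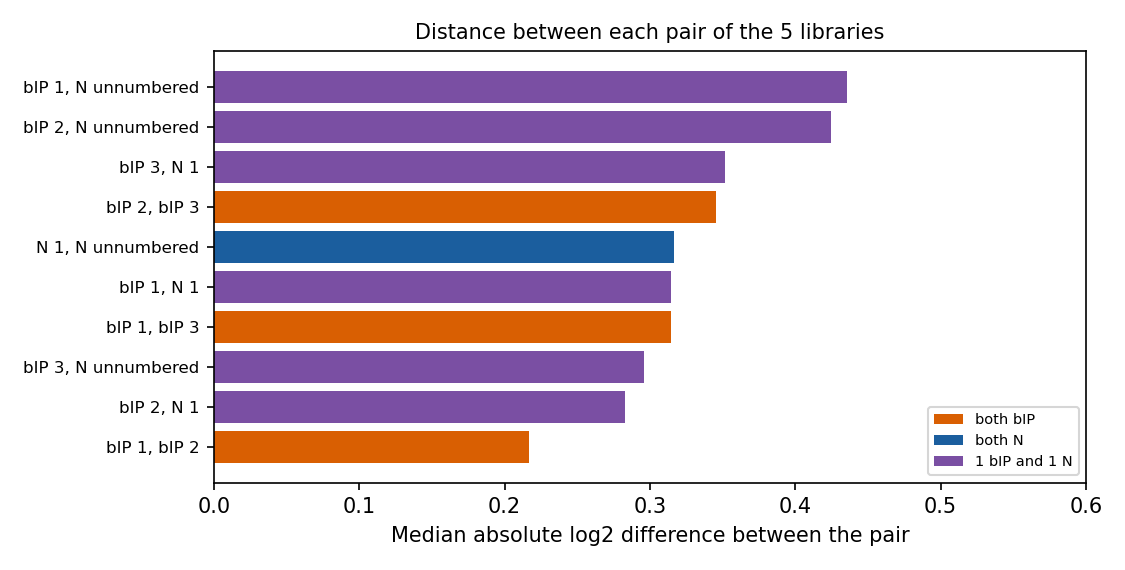
Distance between each of the 10 pairs among the 5 libraries, as the median absolute log2 difference over 9190 genes (bars start at 0; colour gives the groups of the pair). The closest pair is bIP libraries 1 and 2 at 0.217, and the pairs of 1 bIP and 1 neuron library run from 0.283 to 0.436, on both sides of the 0.317 between the neuron libraries.

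The marker genes went only partly with the labels. BCL11B, which defined the neuron sort, measured 489 and 271 CPM in neuron library 1 and the unnumbered one, and 241, 182 and 151 CPM in bIP libraries 1, 2 and 3. Both neuron libraries lay above all bIP libraries, but the difference was not called (log2 0.99 ± 0.36 SE, edgeR adjusted p = 0.557). EOMES measured 98.2, 127 and 31.0 CPM in the libraries labelled bIP, against 39.9 to 245 CPM in apical and 259.8 to 459.6 CPM in basal radial glia. The bIP and apical libraries overlapped, the basal ones lay above both, and EOMES was called lower in bIP than in the 8 radial glia libraries (log2 -1.42, edgeR adjusted p = 0.0297). MKI67, a protein of dividing cells, measured 7.46 to 24.2 CPM in bIP and 12.0 and 15.0 CPM in N, against 248 to 1404 CPM in radial glia. Among the 30 mitosis genes tested, 29 were called lower in bIP than in radial glia, as were 10.4% of all genes. TBR1, a factor of early glutamatergic neurons, measured 236 to 375 CPM in bIP and 14.3 to 55.7 CPM in radial glia. Other intermediate progenitor genes went both ways. Of 21 in a list counted below, 2 were called higher in bIP than in radial glia, NEUROD1 among them, and 5 lower, EOMES among them. In each direction 10.4% of all genes were called. The libraries labelled bIP thus held cell division genes near the neuron level and less EOMES than basal radial glia, and bIP below is their label only.

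All genes that passed the test were lower in the neurons. Of 16804 genes tested, edgeR's quasi-likelihood test called 19 lower in N (0.113%) and none higher (0%). They include RELN, CXCR4, EOMES and the LIM-homeodomain genes LHX1 and LHX5, and their log2 fold changes ran from -5.82 to -2.19, with a median of -3.44. In none of the 19 did the 2 groups overlap, while both neuron libraries lay below all bIP libraries in 13.8% of all genes and above them in 17.2%. At an unadjusted p under 0.05, 767 genes were lower in N (4.56%) and 348 higher (2.07%). In bulk RNA from sorted cells, fewer cells of a type and less RNA of a gene per cell cannot be told apart. With DESeq2 3 genes were called higher in N, and with limma and a quality weight per library 48. Each of the 19 calls ended when the unnumbered neuron library was left out (edgeR adjusted p from 0.0704 to 1), and all but LHX1 and TP73 ended without neuron library 1, while the sign was kept in every removal.

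The difference also moved with how abundant a gene was. Among the 4350 genes with a mean under 2 log2 CPM the median log2 fold change was -0.61, and both neuron libraries lay below all bIP libraries in 25.1% and above them in 4.02%. Among the 4255 genes with a mean of at least 6 log2 CPM the median was 0.24, with 3.08% below and 32.8% above. Over all genes tested it was 0.07. The scaling factors also differed between the groups, at 0.892 and 0.856 in the neuron libraries and 1.02 to 1.08 in the bIP libraries. With the size factors of DESeq2 in edgeR, 20 genes were called, all lower in N, with the 19 among them. The median over all genes tested was then 0.02. The part of scaling in the trend with level was not tested.

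**Figure D2:**
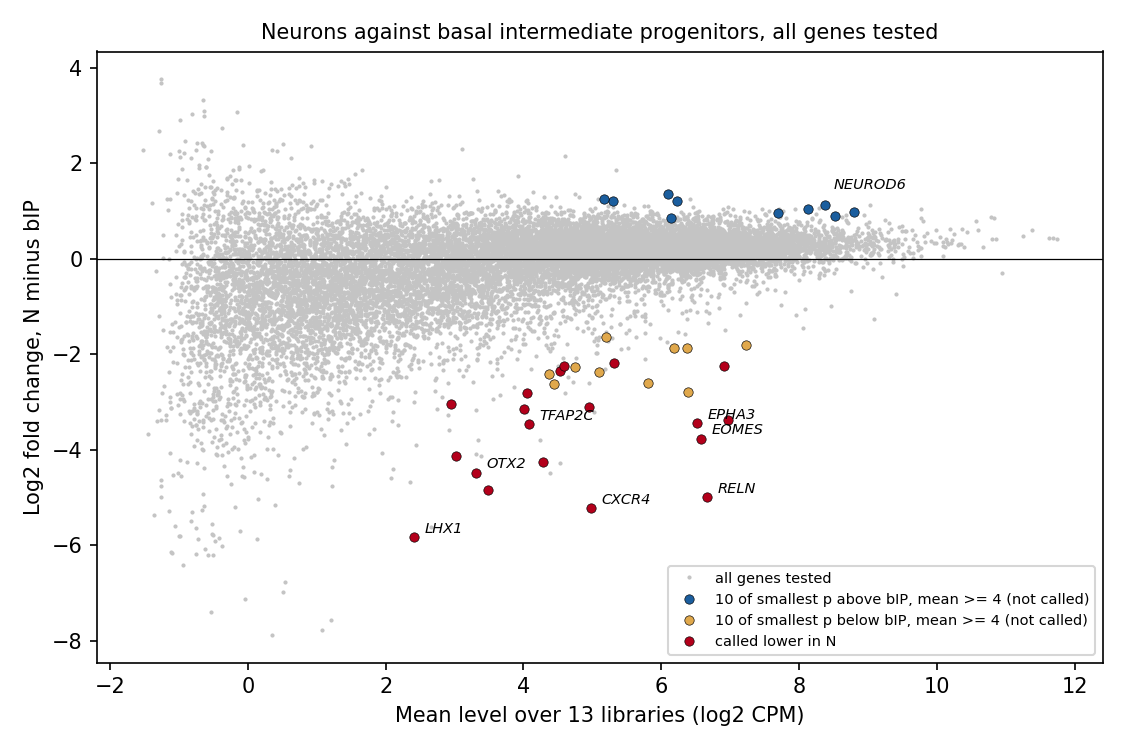
Log2 fold change of N minus bIP (vertical) against the mean level over the 13 libraries in log2 CPM (horizontal), 1 point for each of the 16804 genes tested. The 19 called genes (red) all lie below 0, from -5.82 to -2.19, while the 10 genes of smallest p above bIP among those without overlap and with a mean of at least 4 log2 CPM (blue) lie from 0.85 to 1.36 and none of them was called; rare genes at the left lean below 0 and abundant ones at the right above it.

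One set of called genes stood out in bIP against both other populations. Of the 19 genes, 8 were also called higher in bIP than in radial glia (10.4% of all genes were). These 2 contrasts share the bIP libraries, so they are given side by side and not as support for each other. RELN measured 3049.6, 2047 and 1048 CPM in bIP libraries 1 to 3 and 73.2 and 54.9 CPM in neuron library 1 and the unnumbered one, while the 8 radial glia libraries ran from 21.8 to 72.0 CPM. Even the lowest bIP library lay far above both neuron libraries, the gene was called lower in N (log2 -4.999 ± 0.64 SE, edgeR adjusted p = 0.00297), and the neurons, inside or just above the radial glia range, were not called against them. LHX1, a LIM-homeodomain factor known from Cajal-Retzius cells, measured 67.9, 72.3 and 23.7 CPM in bIP and 1.59 and 0.373 CPM in N, the latter from 17 counts in both neuron libraries together. Its fold change was the largest of the 19 (log2 -5.82 ± 0.78 SE, edgeR adjusted p = 0.00297), with a range of -7.14 to -5.08 when each library was left out in turn. Its paralog LHX5 measured 129, 124 and 48.6 CPM in bIP and 6.99 and 4.48 CPM in N (log2 -4.14 ± 0.67 SE, edgeR adjusted p = 0.0128). TP73, which encodes the p53 relative p73 and marks Cajal-Retzius cells, measured 85.0, 93.2 and 35.1 CPM in bIP and 4.17 and 0.840 CPM in N (log2 -4.85 ± 0.68 SE, edgeR adjusted p = 0.00350). In the gorilla-build table TP73 was not called (log2 -1.40 ± 1.40 SE, edgeR adjusted p = 0.995), with 123 counts in the 13 libraries against 2455 in the human-build table. LHX1 and TP73 were also called lower in N than in radial glia (log2 -1.83 and -1.82, edgeR adjusted p = 0.0458 and 0.0238), whereas LHX5 was not.

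The other 4 genes of that set are not classical markers of a single cell type. PGF, a secreted growth factor of the VEGF family, measured 66.3, 94.7 and 29.3 CPM in bIP and 9.31 and 4.94 CPM in N (log2 -3.16 ± 0.57 SE, edgeR adjusted p = 0.0338). CPNE4, a copine that binds membranes in the presence of calcium, measured 68.2, 51.7 and 37.4 CPM in bIP and 8.82 and 4.01 CPM in N (log2 -3.03 ± 0.57 SE, edgeR adjusted p = 0.0486). CNTNAP5, a cell adhesion protein of the neurexin superfamily, measured 118, 90.9 and 59.96 CPM in bIP and 12.5 and 12.8 CPM in N (log2 -2.82 ± 0.53 SE, edgeR adjusted p = 0.0486). For these 3 genes the neuron level was not called against radial glia, whose medians were 12.7, 4.25 and 10.5 CPM. RBMS1, an RNA-binding protein, measured 64.3, 47.6 and 29.7 CPM in bIP and 10.4 and 8.02 CPM in N (log2 -2.35 ± 0.45 SE, edgeR adjusted p = 0.0486), and the neurons lay below radial glia too. In each of the 8 genes bIP library 3 was the lowest bIP library and still above both neuron libraries. The calls of LHX5, PGF, CPNE4, CNTNAP5 and RBMS1 ended without bIP library 1 and likewise without bIP library 2, with adjusted p over the 8 genes up to 0.240 and 0.188. Without neuron library 1 only LHX1 and TP73 were still called, and without the unnumbered one none of the 8 (edgeR adjusted p from 0.233 to 1).

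**Figure D3:**
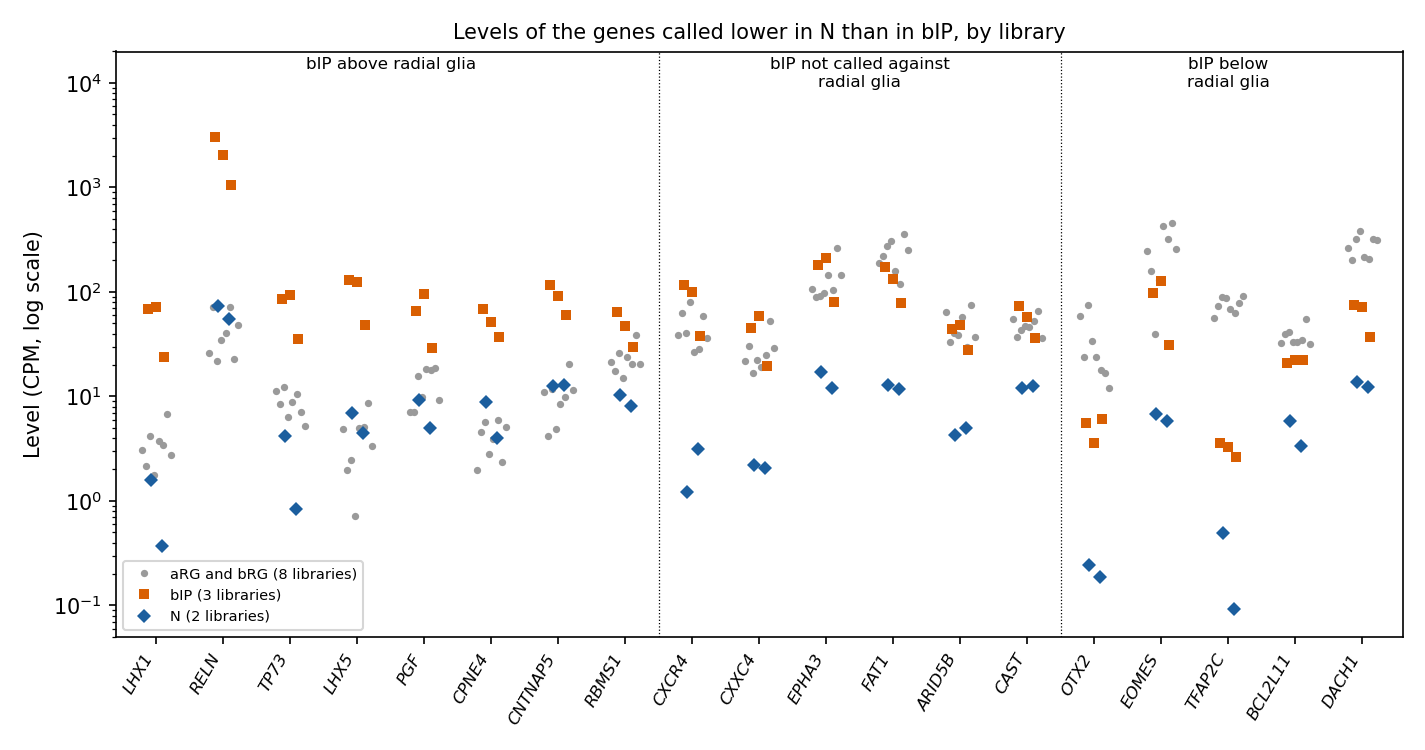
Level in CPM on a log scale of the 19 genes called lower in N, for each of the 13 libraries (grey circles, 8 radial glia; orange squares, 3 bIP; blue diamonds, 2 N), in 3 blocks by how bIP compared with radial glia. In every gene both neuron libraries lie below all 3 bIP libraries; RELN spans 54.9 to 3049.6 CPM between them, and in the right block, from OTX2 to DACH1, the median of the radial glia lies highest.

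A second set fell in the neurons against both other populations. In 6 of the 19 genes bIP was not called against radial glia, with log2 differences from -0.87 (FAT1) to 0.89 (CXCR4). In these 6 the neurons were called lower than both (10.1% of all genes were called lower in N than in radial glia, and 12.4% higher). The contrasts of N with bIP and with radial glia share the neuron libraries, so neither is support for the other. Genes picked as lower in N than in bIP, with bIP near radial glia, are likely beforehand to be lower than radial glia too. CXCR4, the receptor of the chemokine CXCL12, measured 118, 99.04 and 37.9 CPM in bIP, 26.7 to 80.4 CPM in radial glia and 1.23 and 3.17 CPM in N. The neurons held 44 counts of it in all, and it was the most reduced gene after LHX1 (log2 -5.23 ± 0.64 SE, edgeR adjusted p = 0.00297). EPHA3, a receptor of ephrin-A ligands, measured 182, 210.4 and 80.2 CPM in bIP and 17.2 and 11.9 CPM in N (log2 -3.44 ± 0.45 SE, edgeR adjusted p = 0.00297). FAT1, an atypical cadherin, measured 174, 133 and 78.6 CPM in bIP and 12.9 and 11.8 CPM in N (log2 -3.38 ± 0.48 SE, edgeR adjusted p = 0.00350). The neuron libraries agreed closely on FAT1, at 12.3 ± 0.788 CPM (SD, n = 2), against a median of 235 CPM in radial glia.

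CXXC4, a zinc finger protein known as an inhibitor of Wnt signalling, measured 45.5, 58.5 and 19.4 CPM in bIP and 2.21 and 2.05 CPM in N (log2 -4.26 ± 0.59 SE, edgeR adjusted p = 0.00350). ARID5B, a DNA-binding protein with an AT-rich interaction domain, measured 44.5, 48.0 and 27.9 CPM in bIP and 4.29 and 5.04 CPM in N (log2 -3.10 ± 0.47 SE, edgeR adjusted p = 0.00861). CAST, which encodes the calpain inhibitor calpastatin, measured 74.1, 58.2 and 36.6 CPM in bIP and 12.1 and 12.5 CPM in N (log2 -2.19 ± 0.37 SE, edgeR adjusted p = 0.0207), the smallest fold change among the called genes. In these 6 genes too bIP library 3 was the lowest of its group. The call of CAST ended without bIP library 1 (edgeR adjusted p = 0.117) or library 2 (0.0851), and all 6 calls ended without neuron library 1 (0.0607 to 0.281) and without the unnumbered one (0.0704 to 0.619).

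The third set was lower in bIP than in radial glia and lower again in neurons. In 5 of the 19 genes bIP was called lower than radial glia (10.4% of all genes were) and N lower than bIP. Both contrasts hold the bIP libraries, so neither is support for the other. EOMES measured 6.74 and 5.78 CPM in N, below its 98.2, 127 and 31.0 CPM in bIP (log2 -3.77 ± 0.68 SE, edgeR adjusted p = 0.0334). bIP library 3 was the lowest of its group and below all radial glia libraries, and the groups did not overlap. DACH1, a transcriptional cofactor of progenitor cells, measured 74.4, 72.3 and 37.4 CPM in bIP and 13.6 and 12.3 CPM in N (log2 -2.24 ± 0.37 SE, edgeR adjusted p = 0.0176), against 204 to 379 CPM in radial glia. BCL2L11, which encodes the pro-apoptotic protein BIM, measured 20.8, 22.3 and 22.1 CPM in bIP and 5.76 and 3.36 CPM in N (log2 -2.26 ± 0.39 SE, edgeR adjusted p = 0.0207). Its bIP libraries lay close together, at 21.7 ± 0.833 CPM (SD, n = 3).

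A pair of transcription factors of the third set was close to the detection limit in the neurons. OTX2, a homeodomain factor of forebrain patterning and choroid plexus, measured 5.52, 3.61 and 6.02 CPM in bIP and 0.245 and 0.187 CPM in N, which is 138 counts in bIP and 4 in N. Per scaled library size bIP held 23.9-fold more OTX2 (95% interval 9.13 to 89.0, counting error only), and the fitted difference was log2 -4.48 ± 0.71 SE (edgeR adjusted p = 0.0106). TFAP2C, the AP-2 gamma factor of basal progenitors, measured 3.58, 3.29 and 2.61 CPM in bIP and 0.490 and 0.0933 CPM in N, which is 84 counts against 5, or 11.6-fold (4.79 to 36.8, counting error only). Its fitted difference was log2 -3.47 ± 0.54 SE (edgeR adjusted p = 0.0106), and radial glia stood at 56.5 to 91.9 CPM, far above both. The calls of EOMES, DACH1 and BCL2L11 ended without bIP library 1 or 2 (adjusted p over the 5 genes up to 0.102 and 0.137), and all 5 ended without neuron library 1 (0.0589 to 0.308) or the unnumbered one (0.619 to 0.961).

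Across the 19 genes, bIP library 3 was the lowest bIP library in 17 (34.6% of all genes had it lowest), with OTX2 and BCL2L11 as the exceptions. Without that library 33 genes were called, all lower in N, the 19 among them. Without bIP library 1 or 2 the count was 12 and 10, with 10 of the 19 called in each case. In the table counted on the gorilla build gorGor6, 17 of 38520 genes were called lower (0.0441%) and none higher (0%, with 353 higher at an unadjusted p under 0.05), and 12 of the 17 belong to the 19. The 7 that were not called there were TP73, RBMS1, DACH1, CPNE4, CNTNAP5, CAST and BCL2L11. In a fit without bRG library 3, in which the nuclear noncoding RNA MALAT1 took 21.3% of the gorGor6 counts against 6.35% to 10.8% in the other 12, 70 genes were called, 2 of them higher in N, with all 19 included.

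edgeR called no gene higher in the neurons, so the genes nearest to a call are given as values. Among the genes without overlap and with a mean of at least 4 log2 CPM, the smallest p was that of NEUROD6, a basic helix-loop-helix factor of glutamatergic neurons, with 1455 and 1608 CPM in N and 641, 669.9 and 804 CPM in bIP (log2 1.12 ± 0.30 SE, edgeR adjusted p = 0.275). SOX5, a factor of deep-layer neurons, measured 782 and 843 CPM in N and 370.0, 329 and 487 CPM in bIP (log2 1.04 ± 0.31 SE, edgeR adjusted p = 0.376). In both genes the groups did not overlap, and the neuron libraries lay closer to each other than to any bIP library.

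A further 7 of the 10 genes of smallest p under those conditions follow. BOC, a co-receptor of Sonic hedgehog, measured 173 and 166 CPM in N and 85.7, 85.6 and 105 CPM in bIP, both far below the 602 to 955 CPM of radial glia. SLA, a Src-like adaptor protein, measured 255 and 288 CPM in N and 117, 96.1 and 140.1 CPM in bIP, both above the 8.97 to 23.6 CPM of radial glia. EML1, a microtubule-binding protein, measured 463 and 438 CPM in N and 242, 201 and 254 CPM in bIP. So BOC lay below radial glia in both groups and SLA above them. TSHZ3, a zinc finger transcription factor, measured 95.7 and 117 CPM in N and 40.9, 45.1 and 47.8 CPM in bIP. PLIN2, a coat protein of lipid droplets, measured 77.9 and 72.1 CPM in N and 39.6, 45.1 and 40.2 CPM in bIP. LRRC1 and CDCA7 belong here too, and CDCA7 spread most between the neuron libraries, at 25.5 and 55.6 CPM. Adjusted p for these 7 ran from 0.276 to 0.386, and in 8 of the 10 genes bIP library 3 was the highest bIP library (38.4% of all genes had it highest). With quality weights, limma called 8 of the 10, all but CDCA7 and PLIN2. NEUROD6 was also called by a fit of the 5 libraries alone and without bRG library 3, BOC by DESeq2, and NEUROD6 and CDCA7 in 1 of the fits with a term for library number. IMPA2, just below the level minimum, and NR2E1, which overlapped, had smaller p than NEUROD6 (edgeR adjusted p = 0.163 and 0.260) and were called by DESeq2, IMPA2 also by limma and without bRG library 3. IMPA2 measured 17.6 and 18.4 CPM in N and 3.88 to 7.28 CPM in bIP, whereas NR2E1, at 2.45 and 12.9 CPM in N, overlapped with bIP at 0.530 to 2.99 CPM.

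**Figure D4:**
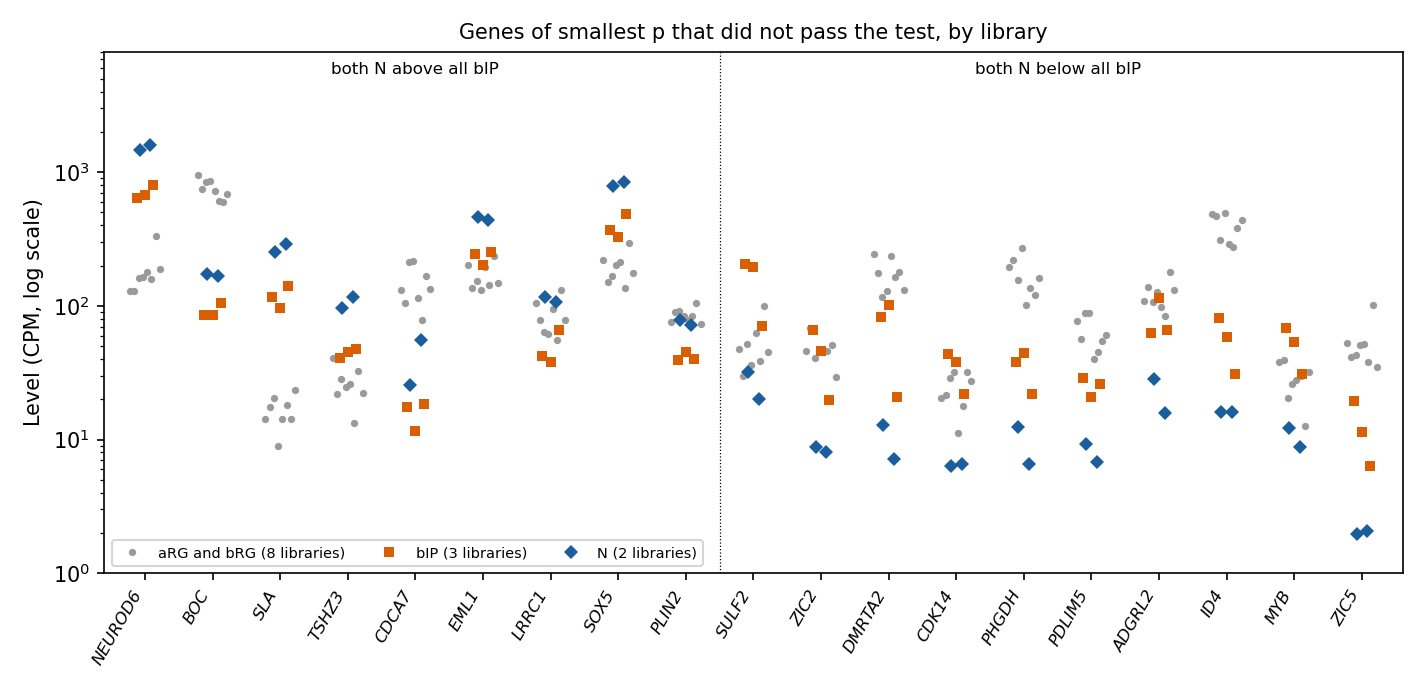
Level in CPM on a log scale of 19 genes of small p that did not pass the test, 9 with both neuron libraries above all bIP libraries (left) and 10 below (right), with the 13 libraries as in the plot of called genes. On the left the gap between N and bIP is narrow (NEUROD6, 1455 and 1608 against 641 to 804 CPM), and on the right bIP library 3 is the lowest bIP library in 8 of the 10 genes.

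A set of 10 uncalled genes lower in N had edgeR adjusted p from 0.0542 to 0.0928. They had the smallest p among those with an official symbol, no overlap and a mean of at least 4 log2 CPM. SULF2, an enzyme that edits heparan sulfate outside the cell, measured 207, 197 and 70.4 CPM in bIP and 32.0 and 20.2 CPM in N (log2 -2.60 ± 0.50 SE). The zinc finger factors ZIC2 and ZIC5, known from the medial edge of the cortex, measured 66.4, 45.7 and 19.8 CPM and 19.6, 11.5 and 6.38 CPM in bIP. In N, ZIC2 measured 8.82 and 8.12 CPM and ZIC5 1.96 and 2.05 CPM. DMRTA2, a factor of the cortical hem and progenitors, measured 83.2, 101 and 20.9 CPM in bIP and 12.7 and 7.18 CPM in N. In these 4 genes library 3 was the lowest bIP library, and the groups did not overlap. ID4, an inhibitor of basic helix-loop-helix factors, and PHGDH, the first enzyme of serine synthesis, are high in radial glia (medians of 411 and 158 CPM), and they measured 16.1 and 16.0 CPM and 12.5 and 6.53 CPM in N. CDK14, MYB, PDLIM5 and the latrophilin ADGRL2 made up the rest, with log2 fold changes from -2.41 to -1.64.

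Gene lists were then counted. They are to be read against all genes tested, of which 0.113% fell, 17.2% had both neuron libraries above all bIP libraries and 13.8% below, and against genes of like level. Those shares were 4.02% above and 25.1% below under 2 log2 CPM, 9.25% and 21.4% from 2 to 4, 20.5% and 8.04% from 4 to 6, and 32.8% and 3.08% from 6 up. Level here is the mean over all 13 libraries, radial glia included. Genes high in radial glia are therefore placed above their level in N and bIP. The Cajal-Retzius list was the only one with more than 2 calls. All 14 of its genes were tested, 4 fell (RELN, TP73, LHX1 and LHX5), and in 12 both neuron libraries lay below all bIP libraries, at a median log2 fold change of -3.49. Their median level was 3.43 log2 CPM. The list also holds DMRTA2, named above as a factor of the cortical hem and progenitors. Against radial glia, 8 of the 14 were called higher in bIP and 2 lower, each beside 10.4% of all genes. The levels of the 14 genes summed to 3905, 2940.2 and 1485 CPM in bIP, 294 and 244 CPM in N and 301 to 415 CPM in radial glia. RELN made up 69.6% to 78.1% of the bIP sums, and the other 13 genes summed to 855, 893 and 438 CPM in bIP and 220.5 and 189 CPM in N. Among the members that were not called, NHLH2, a helix-loop-helix factor, measured 183, 233 and 56.2 CPM in bIP and 14.1 and 8.58 CPM in N. EBF3 measured 62.9, 68.4 and 21.5 CPM in bIP and 2.57 and 3.17 CPM in N, and EBF2 39.0, 27.5 and 23.3 CPM and 4.78 and 1.87 CPM. Both are transcription factors of the early B-cell factor family. CALB2, the calcium-binding protein calretinin, went apart from the list with 129, 83.9 and 153 CPM in bIP and 149 and 137 CPM in N, and NDNF overlapped as well. This list was drawn up with earlier results of these libraries known, so its count is no independent evidence.

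In reelin and chemokine signalling the secreted RELN and the receptor CXCR4 fell. Of 15 genes tested these were the 2 calls, 4 lay above and 4 below bIP without overlap, and the median was 0.06. At the median level of this list, 6.19 log2 CPM, 32.8% of all genes lay above and 3.08% below. The reelin receptors LRP8 and VLDLR measured 662 and 713 CPM and 130 and 147 CPM in N, against 367, 562 and 436 CPM and 60.02, 72.1 and 91.6 CPM in bIP. DAB1, the adaptor that carries the reelin signal into the cell, measured 382 and 507 CPM in N and 228, 179.5 and 291 CPM in bIP (edgeR adjusted p = 0.430). None of these 3 was called by edgeR, limma called DAB1 and VLDLR higher, and both neuron libraries were above all bIP libraries in each. ACKR3, the scavenger receptor of CXCL12, measured 27.0, 27.6 and 21.0 CPM in bIP and 4.04 and 12.9 CPM in N, and CXCL12 itself stayed under 10 CPM in all 5 libraries.

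Transcription factors of deep-layer neurons leaned towards the neuron libraries, with no call by edgeR and 4 by limma (BCL11A, NFIB, NR4A2 and SOX5). Of 17 tested, 10 had both neuron libraries above all bIP libraries and none below, with a median of 0.74, against 0.24 for all genes of at least 6 log2 CPM (the list's own median level was 6.76), of which 32.8% lay above. Their summed level was 17350.0 and 15959.8 CPM in N and 9555 to 10176.5 CPM in bIP. BCL11B, which defined the neuron sort, is 1 of the 10 above, so its direction is not independent of the sort. BCL11A measured 4192 and 4504 CPM in N and 2175, 2348 and 2716 CPM in bIP, and the nuclear factor NFIB 4667 and 4036 CPM and 2397, 2336 and 2356 CPM. NR4A2 and FEZF2 lay above bIP too, FEZF2 with 364 and 195 CPM in N and 170.1, 167 and 128 CPM in bIP. TBR1 and TLE4 overlapped between the groups, TBR1 with 411 and 325 CPM in N against 236 to 375 CPM in bIP and TLE4 with 87.0 and 81.1 CPM in N against 81.5 to 133 CPM in bIP. Upper-layer factors showed no such lean, with 2 of 14 above, 2 below and a median of -0.12.

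Genes of glutamatergic transmission and of synapses lay on both sides of bIP. The median levels of these lists ran from 3.92 (potassium channels) to 5.68 log2 CPM (synaptic vesicles), and from 4 to 6 log2 CPM 20.5% of all genes lay above and 8.04% below. Of 23 glutamatergic genes tested 8 lay above and 4 below without overlap (median 0.38). None was called by edgeR, and limma called GRIA1 and NEUROD6 higher. GRIA1, an AMPA receptor subunit, measured 1882 and 2871 CPM in N and 889.5, 874 and 1493 CPM in bIP, and the NMDA receptor subunit GRIN2B 192 and 182 CPM and 124, 78.8 and 137 CPM. The vesicular glutamate transporters went opposite ways: SLC17A7 measured 304 and 236 CPM in N and 145 to 177 CPM in bIP, while SLC17A6 measured 9.80 and 12.1 CPM in N and 33.3, 44.1 and 34.9 CPM in bIP. Synaptic vesicle genes had 11 of 34 above and 3 below (median 0.23). Synaptic adhesion and scaffold genes had 11 of 37 above and 7 below (median 0.22), with CNTNAP5 as the 1 call and LRRC4C, a ligand of netrin-G, at 64.1, 66.7 and 34.6 CPM in bIP and 13.6 and 9.52 CPM in N. Voltage-gated sodium and calcium channel genes had 11 of 25 above and 4 below (median 0.19), potassium channel genes 8 of 34 above and 5 below (0.19), and GABA and glycine receptor genes 2 of 15 above and 1 below (0.28).

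Genes of the growing axon also lay on both sides. Of 27 guidance receptors EPHA3 fell, 10 lay above and 5 below (median 0.11), and of 25 guidance ligands 9 lay above and 5 below (0.18). The median level of the receptors was 6.52 log2 CPM, where 32.8% of all genes lay above and 3.08% below. That of the ligands was 4.95 log2 CPM, where 20.5% lay above and 8.04% below. Limma called the receptors EPHA5, NEO1 and PLXND1 higher in N. NEO1, the receptor neogenin, called by limma and not by edgeR, measured 456 and 488 CPM in N and 274, 218 and 326 CPM in bIP. The neuropilins, co-receptors of semaphorins, lay on the other side. NRP1 measured 28.1 and 24.7 CPM in N and 49.9, 67.5 and 50.6 CPM in bIP, and NRP2 66.9 and 61.6 CPM in N and 161, 198 and 133 CPM in bIP. Microtubule and neurite growth genes had 11 of 34 above and none below (0.27), with a summed level of 21639 and 22466 CPM in N and 15270.1 to 17602 CPM in bIP. At this list's median level, 7.52 log2 CPM, 32.8% of all genes lay above and 3.08% below, so its count is near that of other abundant genes. Of 27 cadherins and protocadherins tested FAT1 fell, 6 lay above and 8 below (0.14), and its relative FAT4 measured 442 and 579.5 CPM in N and 187, 213 and 342 CPM in bIP. At the median level of the cadherin list, 4.73 log2 CPM, 20.5% of all genes lay above and 8.04% below.

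In the intermediate progenitor list EOMES fell, and of 21 genes 2 lay above and 4 below without overlap (median -0.17), against 20.5% and 8.04% of all genes from 4 to 6 log2 CPM. Their levels summed to 1456 to 2866 CPM in bIP, 3215 and 1809 CPM in N and 1192 to 2917 CPM in radial glia, so the groups overlapped. That median was 0.22 without bIP library 2, which held the highest bIP level of NEUROG2 (77.8 CPM, against 38.7 and 22.02) and HES6 (101 CPM, against 51.4 and 32.4), 2 factors of neurogenic progenitors. NEUROG2 measured 64.1 and 39.5 CPM and HES6 67.5 and 37.2 CPM in N, inside the bIP range. NEUROD1, the next factor in that cascade, measured 94.96, 78.6 and 59.4 CPM in bIP and 31.5 and 29.1 CPM in N, and was not called between them (edgeR adjusted p = 0.593), though bIP lay above radial glia (log2 2.37, edgeR adjusted p = 4.38e-05). Of 20 radial glia genes 1 lay above and 6 below (median -0.29). Their summed level went the other way, at 1103 to 1365 CPM in bIP and 1520 and 1797 CPM in N. Limma called PTPRZ1 of this list higher in N, as did 1 fit with a term for library number, while edgeR called none. PAX6 measured 16.2 to 20.1 CPM in bIP and 13.7 and 19.7 CPM in N, against 532 to 1088 CPM in radial glia. Of 30 mitosis genes none lay above and 7 below (-0.41), and their summed level was 283 to 350 CPM in bIP and 270 and 252 CPM in N. The lowest of the 8 radial glia libraries held 1658 CPM. DNA replication genes had 2 of 23 above and 5 below (-0.04), and genes of cell cycle exit 3 of 17 above and 2 below (0.22).

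Signalling lists were counted in the same way, at median levels from 3.52 to 5.64 log2 CPM. Of 39 Wnt pathway genes CXXC4 fell, 4 lay above and 10 below (median -0.08). Among those below were the ligands of the R-spondin family RSPO2, at 11.8, 12.9 and 12.6 CPM in bIP and 1.72 and 4.94 CPM in N, and RSPO3, at 80.2, 61.5 and 42.8 CPM and 20.1 and 22.6 CPM. BMP and TGF-beta genes had 5 of 28 above and 8 below (-0.23), and Notch genes 4 of 22 above and 3 below (0.01). The Notch ligand DLL1 measured 148 and 159 CPM in N and 63.8, 73.8 and 112 CPM in bIP. In the list of p53 and apoptosis genes BCL2L11 fell, and 3 of 22 lay above and 5 below (-0.22). Matrix and integrin genes had 5 of 29 above and 7 below (-0.01).

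Lists for cells that the gates could also hold were low in both groups. Of 18 GABAergic neuron genes tested, out of 22 in the list, 2 lay above and 5 below (median -0.88), with a summed level of 90.1 to 115 CPM in bIP and 73.2 and 79.9 CPM in N. GAD1, an enzyme that makes GABA, measured 14.8, 18.9 and 11.5 CPM in bIP and 1.96 and 1.77 CPM in N and was not called (edgeR adjusted p = 0.294). The vesicular GABA transporter SLC32A1 stayed at or under 1.19 CPM in all 5 libraries, and DLX5 did not pass the count filter. Choroid plexus and cortical hem genes had 1 of 19 above and 7 below (-0.49) and 1 call, OTX2, with a summed level of 345 to 489.6 CPM in bIP and 282 and 466 CPM in N, against 484 to 8160.1 CPM in radial glia. LMX1A, a factor of the hem, measured 8.81, 8.80 and 9.35 CPM in bIP and 1.10 and 0.746 CPM in N (edgeR adjusted p = 0.0801), while TTR, the main choroid plexus transcript, was highest in the unnumbered neuron library (289 CPM) and bIP library 3 (245 CPM) and overlapped. Mesenchyme genes had 0 of 13 above and 5 below (-0.32), with summed levels of 114 to 165 CPM in bIP and 65.4 and 124 CPM in N. Neuron genes of hindbrain, midbrain and hypothalamus had 0 of 19 above and 7 below (-0.62), with sums of 82.1 to 92.4 CPM in bIP and 66.4 and 49.2 CPM in N. For genes of the oligodendrocyte lineage and astrocytes the counts were 0 and 7 of 11 (-1.03) and the sums 41.4 to 54.1 CPM in bIP and 26.1 and 18.5 CPM in N. Retina genes had 0 of 11 above and 4 below (-0.38), and blood vessel and microglia genes 3 of 13 above and 5 below (-0.59), with sums of at most 47.5 and 100.5 CPM in any of the 5 libraries. Without neuron library 1 the medians were -1.25 for retina, -1.10 for hindbrain, -0.99 for blood vessel and microglia and -0.56 for GABAergic genes. Without the unnumbered library they were -1.11 for choroid plexus and hem and -0.71 for mesenchyme, and without bIP library 3 the retina median was -0.66 and that of choroid plexus and hem -0.29. The median levels of the GABAergic, hindbrain, oligodendrocyte and retina lists, 0.53 to 1.31 log2 CPM, lie where all genes had a median of -0.61 and 25.1% lay below, and the part of level in these lists was not tested.

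Lists that report on the state of the RNA or the cells held no call. Of 36 ribosomal protein genes 8 lay above and none below (median 0.11), at a median level of 7.18 log2 CPM, where 32.8% of all genes lay above and 3.08% below. Glycolysis and hypoxia genes had 3 of 22 above and 1 below (0.10), and immediate early and heat shock genes 5 of 18 above and 3 below (0.19). EGR1, an immediate early gene, measured 6.42, 12.2 and 6.29 CPM in bIP and 2.08 and 1.96 CPM in N.

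**Figure D5:**
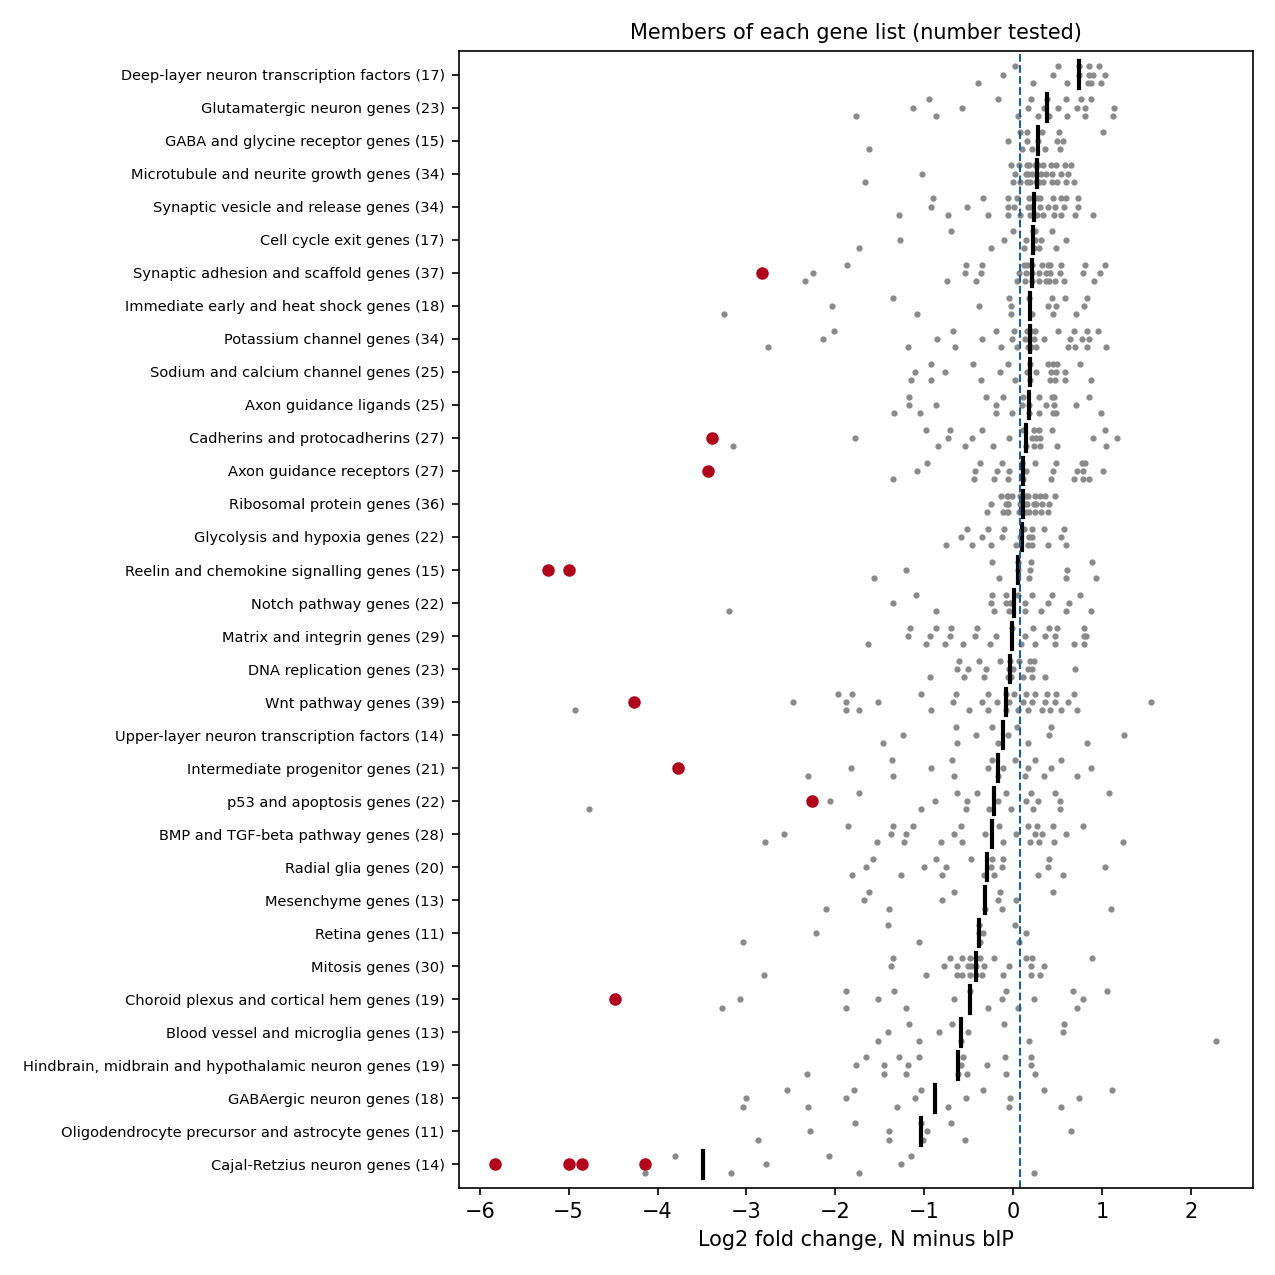
Log2 fold change of N minus bIP for each tested member of the 34 gene lists (grey, not called; red, called; the number tested in brackets), with the list median as a black bar and the median of all genes tested as a dashed line, in order of the median. The Cajal-Retzius list at the bottom has its median at -3.49 and 4 called genes, and the deep-layer list at the top its median at 0.74 with no call; all red points lie below 0.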

How the data were processed

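The authors deposited 2 tables of read counts per gene for the 13 libraries, 1 on the human build hg38 (18137 genes) and 1 on the gorilla build gorGor6 (60583 named genes, with a row that names no gene left out at 0.00351% to 0.00768% of counts). STAR and hg38 are named in the submitters' processing notes, without a version; the counting tool, annotation and strand setting are not stated, so overlapping or antisense genes may share reads. From the hg38 counts, levels were computed here as CPM with TMM scaling. edgeR 4.0.16 (R 4.3.3) fitted its quasi-likelihood model to all 13 libraries in 4 populations (9 residual degrees of freedom), after filterByExpr with a minimum count of 10. Fold changes are of N minus bIP, p-values were adjusted by Benjamini-Hochberg over all genes tested, and a gene was called at an adjusted p under 0.05. The SE of a fold change was derived from the test, as its absolute log2 value divided by the square root of the F statistic. It is symmetric by construction, also for genes with few counts. DESeq2 1.42.0 and limma 3.58.1 served as alternatives. The procedure was tested on simulated data. Depth ran from 5464721 to 12524938 counts per library; intervals cover counting error only, and 3 counts equal 0.270 to 0.542 CPM.

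Named were every called gene, the 10 uncalled genes of smallest p in each direction without overlap and with a mean of at least 4 log2 CPM, the cell type markers, up to 4 members of smallest p per list, and genes called higher by DESeq2 or by the fit of 5 libraries; 1 gene that this rule names is not reported here. NHLH2, EBF2, EBF3, NDNF, CXCL12, LRP8, VLDLR, SLC17A7, RSPO3 and TTR were named after their values were seen. The comparison and the 34 lists (772 distinct genes) were chosen with earlier results of these data known. A planned motif search in promoters was not run, since promoter sequences were not used here.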

Additional observations from a re-analysis of the deposited data

Results flagged for a closer look

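In 2 of 38 groups tested for a library apart from its group, 1 library stood out, a number that chance alone can give at the 95% level. Both concern radial glia levels of called genes. PGF measured 9.327 CPM in bRG library 4, against 17.91 to 18.86 CPM in the other 3 bRG libraries. BCL2L11 measured 54.58 CPM in bRG library 3, against 31.6 to 34.93 CPM in the others. The neuron and bIP groups, with 2 and 3 libraries, were too small to be examined this way.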

How the results depend on the processing

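All 19 called genes kept a negative fold change under all 15 alternatives, and of 155 other named genes 11 changed sign under at least 1. The number of calls, 19 with none higher in N, was less stable. It was 169 with DESeq2 (3 higher, 166 lower), 103 with limma and quality weights (48 higher, 55 lower), 48 with the 5 libraries alone (1 higher, 47 lower) and 70 without bRG library 3 (2 higher, 68 lower). Terms for library numbers 1 and 2 against 3 and 4, chosen after seeing the data, gave 40 (0 higher, 40 lower) or 51 (7 higher, 44 lower), depending on where the unnumbered library was put. Leaving out 1 library gave 0 to 33 calls, 0 to 33 of them lower and 0 higher; with 1 neuron library left, that library is assumed to vary like the other groups. The 5 libraries alone did not call TFAP2C, and limma did not call EOMES, OTX2 or TFAP2C. A fit with library number as a block gave the unnumbered neuron library a term of its own. N in that fit rests on neuron library 1 alone, so it is no separate check on replicates. In it the log2 fold changes of the 19 genes ran from -6.04 to -1.73. The labels do not say that a number marks a shared culture, so the numbers are not shown to pair the samples. The deviations of neuron library 1 from its group mean correlated at 0.395, 0.423 and -0.615 with those of bIP libraries 1, 2 and 3. For the unnumbered neuron library the signs are reversed by construction. Deviations cancel out within a group, so these values cannot all share a sign and cannot decide whether the numbers pair samples. Of 238 recomputed list medians 224 kept their sign; the others belong to the intermediate progenitor, DNA replication, upper-layer, cadherin, matrix, Notch and glycolysis lists. Medians that moved by more than 1.5 times without 1 library include Wnt (-0.08 to -0.30 without neuron library 1), p53 (-0.22 to -0.49, the same), BMP (-0.23 to -0.04 or -0.52 without bIP library 1 or 2), mitosis (-0.41 to -0.27 without bIP library 2 or the unnumbered library), potassium channels (0.19 to 0.33), reelin and chemokine (0.06 to 0.29) and cadherins (0.14 to -0.20), the last 3 without the unnumbered library, and guidance receptors (0.11 to 0.25 without bIP library 2). The median of all genes was 0.07, and -0.12 in the gorGor6 table. The cause of these shifts was not tested.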

Other observations

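The gorGor6 table holds 22129 tested genes whose names the hg38 table lacks, and 4 of them were called, all lower in N. RMST, a long noncoding RNA of neural progenitors, measured 39.4, 46.6 and 21.4 CPM in bIP libraries 1 to 3 and 1.79 and 3.56 CPM in neuron library 1 and the unnumbered one (log2 -3.73 ± 0.59 SE, edgeR adjusted p = 0.0118). RASSF8-AS1 measured 37.5, 34.6 and 22.2 CPM in bIP and 6.69 and 5.72 CPM in N (log2 -2.34 ± 0.40 SE, edgeR adjusted p = 0.0246), against 59.1 to 113 CPM in radial glia. As an antisense gene counted with no stated strand setting, it cannot be told apart from its partner on the other strand. The other 2 carry no gene symbol. LHX1-DT, the divergent transcript beside LHX1, was not called (edgeR adjusted p = 0.0764), with 112, 99.5 and 27.4 CPM in bIP and 4.24 and 0.855 CPM in N. In these 3 transcripts bIP library 3 was the lowest bIP library and the groups did not overlap.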
